A study of Drosophila melanogaster with 24 samples.

Results

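The yolk protein genes Yp1, Yp2 and Yp3 are the 3 genes described here, taken by gene identifier from 14220 genes with summed estimated counts in 24 RNA-seq libraries of Drosophila melanogaster. The tissue was the carcass of adult mated females about 4 days old, which is the abdominal body wall with its attached fat body once gonads, gut and the bulk of the excretory tubules had been taken out. Each library came from 1 pool of 10 carcasses. Flies were sampled from 6 Selected populations, S1 to S6, and 6 Control populations, C1 to C6, and each population was raised on a poor and on a standard larval diet. The 4 groups of 6 libraries were therefore Selected flies on poor diet, Selected flies on standard diet, Control flies on poor diet and Control flies on standard diet. Poor food was a dilution of the yeast, sugars and cornmeal of the standard food. All groups were reared at 200 eggs per bottle with 40 ml of food. Adults of every group were moved to standard food on day 1, so diet means larval food only, and the carcass still held oenocytes, neurons, hemolymph and tubule fragments. The regimes name the evolutionary history of the populations, and the question the design poses is how larval undernutrition in the present generation and in past generations bears on adult expression. Diet, regime and population were read from the sample characteristics. The sample titles name the other diet in 24 libraries, the other regime in 12 and another population in 24, so with the titles in their place the 12 poor-diet and 12 standard-diet libraries would change places and the pairs within populations would be others.

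Yolk proteins are the main protein store of the fly egg. They are made in the adult female fat body and in ovarian follicle cells, secreted, and taken into the growing oocyte by the receptor Yolkless. Their transcription is female-specific under the Doublesex pathway, and in adult flies it is known to respond to feeding, juvenile hormone and ecdysone. The proteins are related in sequence to lipases and carry lipid, steroid conjugates and amino acids into the egg.

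All 3 genes lie on the X chromosome. In the BDGP6.54 annotation Yp1 (FBgn0004045) spans X:10053811-10055498 on the forward strand and Yp2 (FBgn0005391) spans X:10050951-10052636 on the reverse strand. The 2 genes are read away from each other, with 1174 bp between their starts. Yp3 (FBgn0004047) stands alone at X:13759546-13761547 on the forward strand, 3704047 bp beyond the end of Yp1. Yp1 and Yp2 each have 1 intron, of 77 and 68 bp, and Yp3 has 2 introns, of 62 and 72 bp. The coding sequences are 1317, 1326 and 1260 bp long for Yp1, Yp2 and Yp3, which makes predicted proteins of 439, 442 and 420 residues. An annotated antisense RNA, asRNA:CR45601, overlaps Yp1 on the reverse strand. It has 0 transcripts in the quantified set, and no source used here says if counting kept strands apart, so reads from it and from Yp1 cannot be told apart. No annotated gene overlaps Yp2 or Yp3.

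Each gene has 2 annotated transcripts with the same coding sequence. Yp1-RA held a median of 99.1% of the Yp1 counts over 24 libraries and Yp3-RA a median of 99.3% of the Yp3 counts. Yp2 was divided between 2 transcripts that differ mainly in where the 3' end lies: Yp2-RA held a median of 73.1% and Yp2-RB, which runs on to 10050951, a median of 26.9% with a range of 22.3% to 39.3%.

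The 3 genes together took a large part of each library. Their share of all estimated counts was 0.679%, 2.65% and 6.09% (lowest, median, highest of 12) on poor diet and 4.54%, 5.29% and 10.5% on standard diet. Selected flies on poor diet held 0.679%, 2.05% and 4.32% (lowest, median, highest of 6), against 0.809%, 3.29% and 6.09% in Control flies on poor diet. On standard diet the same 3 values were 5.03%, 5.64% and 10.5% in Selected flies and 4.54%, 4.82% and 8.38% in Control flies. The groups overlap between regimes on each diet, and the highest poor-diet library, C1, lies above the median of the standard-diet libraries. By counts Yp1 ranked between 2 and 26 among all genes in the poor-diet libraries and between 1 and 3 in the standard-diet libraries.

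**Figure D1:**
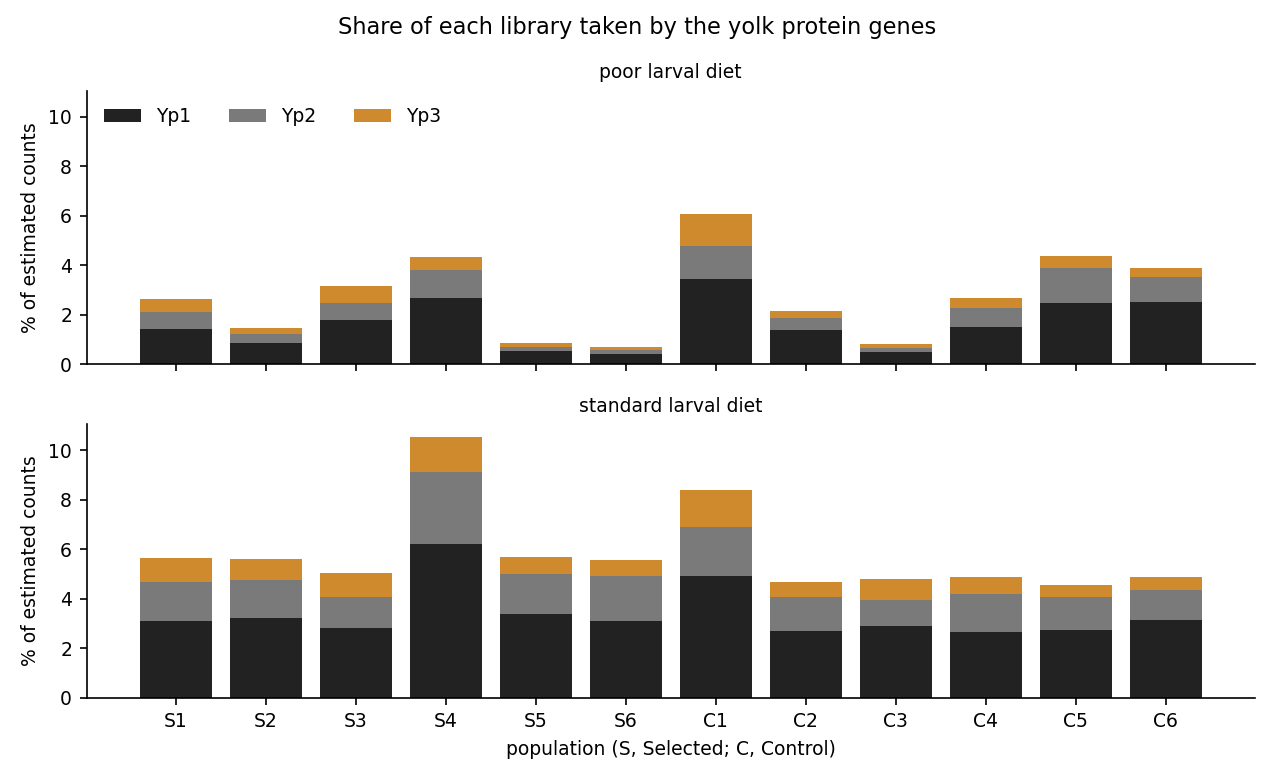
Bars show the percent of a library's estimated counts on Yp1 (black), Yp2 (grey) and Yp3 (orange), stacked, for the poor diet above and the standard diet below, by population. The poor-diet libraries run from 0.679% in S6 to 6.09% in C1, and the standard-diet libraries from 4.54% in C5 to 10.5% in S4.

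Compared per transcript length, as length-normalised TPM, the order was Yp1 over Yp2 over Yp3 in 9 of 12 poor-diet libraries and in 12 of 12 standard-diet libraries. In the poor-diet libraries of S3, C1 and C3, Yp3 stood above Yp2. Yp1 had a median level of 11663 TPM on poor diet and 24645 TPM on standard diet. Yp2 had median levels of 5427 and 12347 TPM in the same order of diets, and Yp3 had 3211 and 6329 TPM. The ranges of neighbouring genes overlapped on both diets, from 1096 to 11414 TPM for Yp2 and from 929 to 10514 TPM for Yp3 on poor diet.

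All 3 genes fell on poor larval diet. Yp1, the most abundant, had 4418, 14587 and 37769 CPM (lowest, median, highest of 12; counts scaled to TMM-normalised library size) on poor diet, against 23755, 30708 and 70134 CPM on standard diet. In each of the 12 populations the poor-diet library was the lower one, although 3 poor-diet libraries lay above the lowest standard-diet library. Yp2, which shares the divergent locus with Yp1, had 1493, 6664 and 14531 CPM on poor diet and 10398, 14555 and 33263 CPM on standard diet. Its poor-diet library was again the lower one in all 12 populations, and 4 poor-diet libraries overlapped the standard-diet range. Yp3, from its separate locus, had 1262, 3988 and 14226 CPM on poor diet and 5110, 7828 and 16823 CPM on standard diet. The same held in all 12 populations, with 2 poor-diet libraries inside the standard-diet range.

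**Figure D2:**
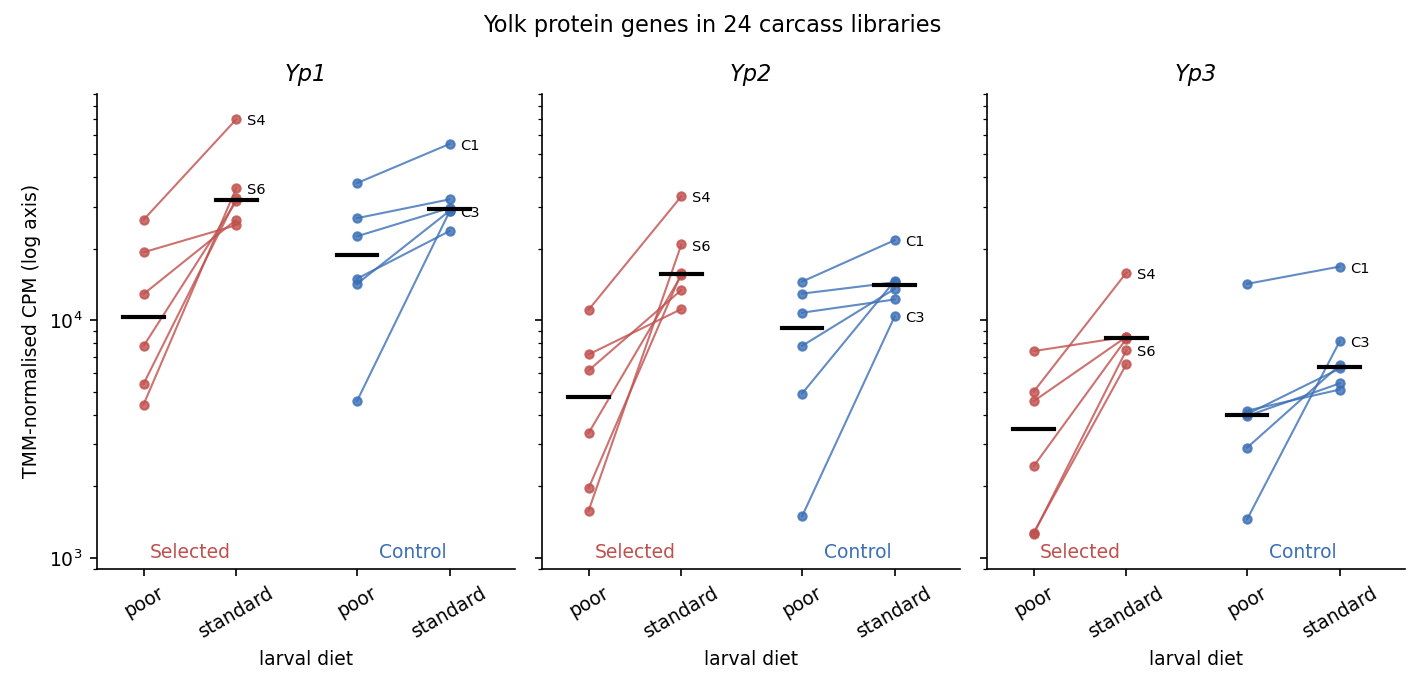
Each point is 1 library and each line joins the poor-diet and standard-diet library of a population, in TMM-normalised CPM on a log axis, with Selected populations in red and Control populations in blue; black bars are medians of 6 libraries. Every line runs upward to the right, and the poor-diet points spread from 4418 to 37769 CPM for Yp1 while the standard-diet points lie between 23755 and 70134 CPM.

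Fitted over all 24 libraries with population as a block, the log2 fold change of poor over standard diet was -1.32 ± 0.28 (SE) for Yp1, -1.50 ± 0.33 for Yp2 and -1.22 ± 0.25 for Yp3. These correspond to 0.401, 0.352 and 0.429 of the standard-diet level. The adjusted p was 0.0428 for Yp1, 0.0480 for Yp2 and 0.0389 for Yp3 (edgeR quasi-likelihood F test, Benjamini-Hochberg over 10184 genes, called below 0.05). In this comparison 1.13% of all genes tested were called in either direction and 0.265% were called lower on poor diet, beside 3 of 3 yolk protein genes. The calls lie close to the threshold. Leaving out population C5 or C6 kept all 3, and leaving out any 1 of the other 10 populations left 0 called, with adjusted p between 0.0327 and 0.109 over the 12 fits and fold changes between -1.63 and -1.10. Without the population block the fold changes were -1.13, -1.27 and -0.99 for Yp1, Yp2 and Yp3, with adjusted p of 0.129, 0.118 and 0.219. Populations S4 and C1 stood above the rest of their regimes, and without both, a fit chosen after seeing the data, the values were -1.39, -1.60 and -1.28, with adjusted p of 0.0866 to 0.105 (edgeR), and 0 of all genes tested were called. In a carcass library a smaller number of fat body cells and less yolk protein RNA per cell cannot be told apart.

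The size of the difference varied widely between populations. Yp1 on poor diet stood at 12.2% of its standard-diet CPM in S6, 15.9% in C3, 16.6% in S5 and 24.5% in S2. At the other end it stood at 83.3% in C6, 76.8% in S3, 76.0% in C5 and 68.4% in C1. Both regimes thus hold populations at each end. Yp2 on poor diet ranged from 7.58% of its standard-diet level in S6 to 89.6% in C5, and Yp3 from 16.9% in S6 to 87.0% in S3. The spread between populations was wider on poor diet: the SD of log2 CPM over 12 libraries was 1.06 on poor diet and 0.46 on standard diet for Yp1, 1.18 and 0.47 for Yp2, and 1.05 and 0.54 for Yp3. The highest library exceeded the lowest by 8.55 times on poor diet and 2.95 times on standard diet for Yp1.

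The poor-diet libraries also differed in a marker of library composition. Ribosomal RNA pseudogenes, whose counts are uncertain because near-identical copies share reads, took 2.40%, 3.09% and 5.40% of counts (lowest, median, highest of 12) in poor-diet libraries and 0.726%, 1.59% and 9.28% in standard-diet libraries. Poor diet had the larger share in 11 of 12 populations, S2 being the exception. The 3 poor-diet libraries with the lowest Yp1, from S6, C3 and S5, held 3.73%, 4.69% and 5.40%, the 3 highest of the poor-diet libraries. Across the 12 populations the diet difference of this share and that of Yp1 had Pearson r = -0.18 and Spearman rho = -0.31 (permutation p adjusted over 3 genes 0.596 and 0.33). Without S2 and S5, farthest from the median, r was -0.54 for Yp1, -0.51 for Yp2 and -0.59 for Yp3. With the log2 share as a covariate, a fit chosen after seeing the data, the diet fold changes were -1.17, -1.31 and -1.04 for Yp1, Yp2 and Yp3 with unadjusted p of 0.0142, 0.0188 and 0.0143 and adjusted p of 0.56 to 0.591 (edgeR). That fit called 0 of the 10184 genes. The same covariate within each regime is given with the regime's values.

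Within the 6 Selected populations Yp1 had 4418, 10340 and 26476 CPM (lowest, median, highest) on poor diet and 25142, 32162 and 70134 CPM on standard diet. The fitted log2 fold changes were -1.73 ± 0.37 (SE) for Yp1, -2.02 ± 0.43 for Yp2 and -1.57 ± 0.33 for Yp3. None of the 3 passed, with adjusted p of 0.124, 0.124 and 0.119 (edgeR), where 0.628% of genes tested were called. The unadjusted p of this edgeR fit was 0.0021, 0.0021 and 0.0018. With DESeq2, which called 3.88% of genes, all 3 passed at adjusted p of 0.0193, 0.0450 and 5.0e-06. With a germline marker score as covariate, where edgeR called 2.04% of genes, all 3 passed at 0.0467, 0.0475 and 0.0367. With the rRNA pseudogene share as covariate the Selected values were -1.61, -1.85 and -1.45 (adjusted p of 0.383 to 0.415, edgeR). No marker gene of another tissue passed in Selected flies, but fitted diet values were negative in 12 of 12 eggshell and follicle cell genes (median -1.11) and 19 of 21 germline genes (median -0.53), and positive in 11 of 11 muscle genes (median 0.33), against -0.01 over all genes. The part of eggshell and muscle RNA in the Selected values was not tested.

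Within the 6 Control populations Yp1 had 4567, 18756 and 37769 CPM on poor diet and 23755, 29285 and 55239 CPM on standard diet. The log2 fold changes were -0.89 ± 0.32 (SE) for Yp1, -0.99 ± 0.36 for Yp2 and -0.85 ± 0.30 for Yp3. The unadjusted p was 0.0254, 0.0279 and 0.0242 and the adjusted p 0.92 for each (edgeR). Each gene was lower on poor diet in all 6 Control populations. Here 0% of genes were called by edgeR, 393 had an unadjusted p under 0.05, and DESeq2 called 14 genes, of which 0 were yolk protein genes. With the rRNA pseudogene share as covariate the Control values were -0.01, 0.0050 and 0.10. The share was higher on poor diet in each of the 6 Control populations, so this fit separates share and diet poorly. Over the 3 Control populations C3, C2 and C4, Yp1 on poor diet was 15.9%, 49.2% and 62.9% of its level on standard diet, and C3 gave the lowest value of the regime for each gene. Without C3 the Control fold changes were -0.58, -0.65 and -0.55 for Yp1, Yp2 and Yp3. The female fat body marker score was lower on poor diet in 6 of 6 Control populations, by 0.061 to 0.63 on the log2 scale, and in 3 of 6 Selected populations. Midgut enzymes had negative fitted values in 13 of 14 genes in Control flies (median -2.58) and 8 of 14 in Selected flies (median -0.04), and germline genes had a median of 0.11 in Control flies. With the germline score as covariate the Control values were -0.86, -0.94 and -0.82 for Yp1, Yp2 and Yp3 (unadjusted p of 0.0021, 0.0028 and 0.0024, adjusted p 0.53, edgeR). The part of fat body and midgut RNA in the Control values was not tested.

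The difference between the regimes in diet response was tested as an interaction. Selected minus Control response was -0.85 (95% confidence interval -1.97 to 0.27) for Yp1, -1.05 (-2.35 to 0.26) for Yp2 and -0.73 (-1.76 to 0.30) for Yp3 on the log2 scale. The unadjusted p was 0.124, 0.106 and 0.148 and the adjusted p 0.9999 for each (edgeR, 10184 genes). In this test 0% of genes were called by edgeR, 155 had an unadjusted p under 0.05, and DESeq2 called 1 gene. Each interval includes 0 and reaches well below it, so a difference between the regimes was not resolved.

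**Figure D3:**
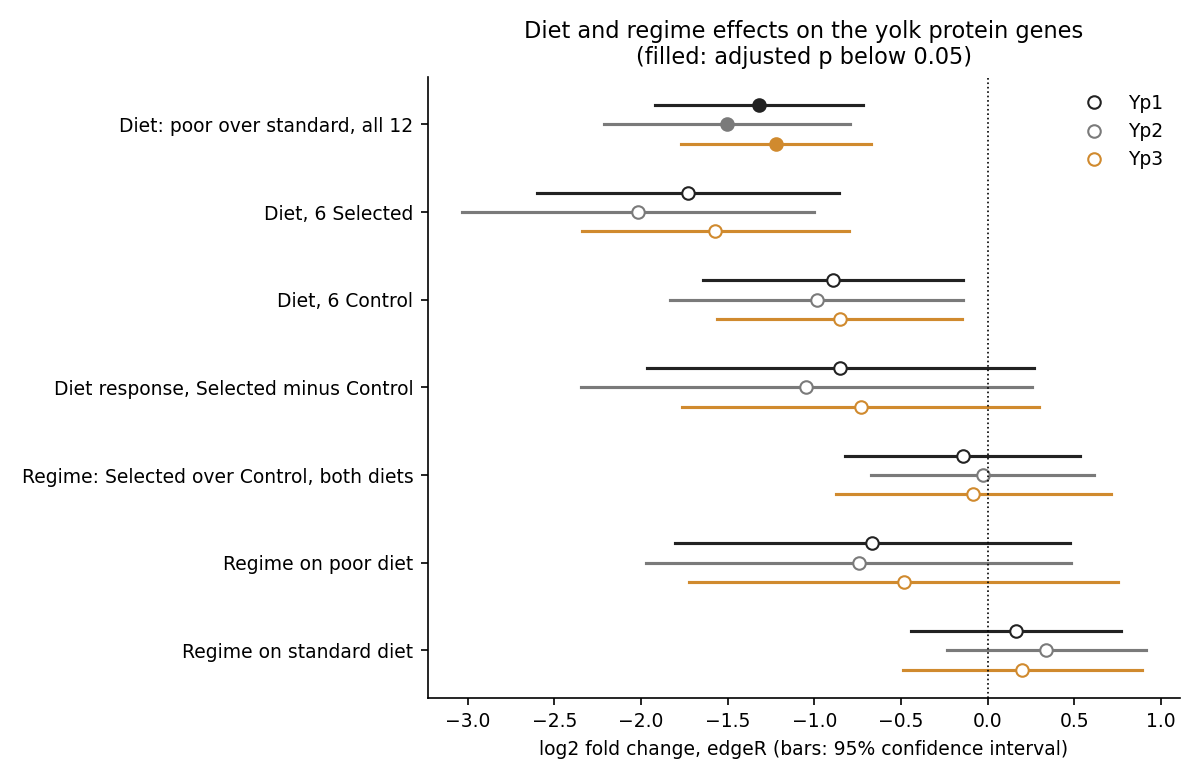
Points are edgeR log2 fold changes of Yp1 (black), Yp2 (grey) and Yp3 (orange) and bars are 95% confidence intervals, for diet (poor over standard), the diet response (Selected minus Control) and regime (Selected over Control); filled points have an adjusted p below 0.05. The 3 filled points are those of diet over all 12 populations, at -1.32, -1.50 and -1.22, and every regime interval crosses 0.

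No yolk protein gene passed the test of Selected against Control populations. Averaged over both diets, Yp1 had 18990, 20011 and 48305 CPM (lowest, median, highest of 6) in Selected populations and 16675, 23838 and 46504 CPM in Control populations. Yp2 had 8870, 9590 and 22166 CPM in Selected and 5946, 11087 and 18133 CPM in Control populations. Yp3 had 3908, 5968 and 10435 CPM in Selected and 4637, 4751 and 15525 CPM in Control populations. The ranges overlap for each gene, and S4 and C1 are the highest of their regimes in all 3. The fitted log2 fold change of Selected over Control was -0.14 (95% interval -0.82 to 0.53) for Yp1, -0.03 (-0.67 to 0.61) for Yp2 and -0.08 (-0.88 to 0.71) for Yp3. The adjusted p was 0.906, 0.978 and 0.95 (edgeR on 6 against 6 population sums), where 0.0295% of genes were called. With C1 left out the values were 0.11, 0.16 and 0.40, so the sign turned.

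On poor diet alone the regime fold change was -0.66 (-1.80 to 0.47) for Yp1, -0.74 (-1.97 to 0.48) for Yp2 and -0.49 (-1.72 to 0.75) for Yp3. The adjusted p was 0.769, 0.753 and 0.855 (edgeR), and 0.0589% of genes were called. Leaving out 1 population gave -1.02 to -0.39 for Yp1, -1.11 to -0.54 for Yp2 and -0.82 to 0.15 for Yp3, the last without C1. On standard diet the fold changes were 0.16 (-0.44 to 0.77), 0.34 (-0.23 to 0.91) and 0.20 (-0.49 to 0.89) for Yp1, Yp2 and Yp3, with adjusted p of 0.905, 0.903 and 0.903 (edgeR) and 0.00982% of genes called. Without S4 the Yp1 value on standard diet was -0.12, the Yp2 value 0.080 and the Yp3 value -0.02.

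The 3 genes moved together from library to library. Log2 CPM over 24 libraries had r = 0.98 for Yp1 and Yp2, 0.93 for Yp1 and Yp3, and 0.90 for Yp2 and Yp3. Over the 12 diet differences the same pairs had r = 0.99, 0.98 and 0.96. These are descriptions over libraries that share populations, with no test.

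Ratios of estimated counts within a library, which do not depend on its normalisation, showed how far the genes kept step. Yp2 over Yp1 was 0.327, 0.392 and 0.574 (lowest, median, highest of 12) on poor diet and 0.361, 0.485 and 0.577 on standard diet. Poor diet gave the lower ratio in 10 of 12 populations, all but C5 and C6, with a mean log2 difference of -0.20 ± 0.26 (SD). Yp3 over Yp2 was 0.322, 0.687 and 1.03 on poor diet and 0.354, 0.469 and 0.785 on standard diet. Poor diet gave the higher ratio in 9 of 12 populations, with a mean log2 difference of 0.30 ± 0.38. Yp3 over Yp1 was 0.147, 0.277 and 0.384 on poor diet and 0.168, 0.245 and 0.339 on standard diet, with a mean log2 difference of 0.11 ± 0.21. In exact two-sided sign-flip tests over 12 populations the p was 0.021, 0.0142 and 0.112 for Yp2 over Yp1, Yp3 over Yp2 and Yp3 over Yp1. After adjustment over 9 tests these became 0.0945, 0.0945 and 0.304, so no ratio passed. Without C5 both Yp2 over Yp1 and Yp3 over Yp2 passed, and without C6 Yp3 over Yp2 passed; the lowest adjusted p of these was 0.0264. No regime or interaction test of a ratio had an adjusted p below 0.304 (exact permutation of 6 against 6 populations).

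A population's Yp3 to Yp1 ratio on one diet went with its ratio on the other. Over 12 populations the log2 ratio on poor diet and on standard diet had Pearson r = 0.89 and Spearman rho = 0.90 (permutation p 0.00014 and 0.00025; adjusted over 6 relations 0.00084 and 0.0015). The relation was examined after seeing the data. It held without the 2 populations farthest from the median, C5 and C6 (r = 0.81), and within the 6 Selected (r = 0.79) and 6 Control populations (r = 0.96). S3 had the highest ratio on both diets, 0.384 on poor and 0.339 on standard diet, and C6 the lowest, 0.147 and 0.168. When the libraries were paired by the populations and diets of the titles instead, r was 0.093 and rho 0.084.

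For Yp3 over Yp2 the same correlation was r = 0.73 and rho = 0.66 (adjusted permutation p 0.0246 and 0.0718), and r = 0.60 without C1 and C3. For Yp2 over Yp1 it was r = 0.38 and rho = 0.25 (adjusted permutation p 0.31 and 0.542). The levels themselves gave r = 0.36 for Yp1, 0.22 for Yp2 and 0.49 for Yp3, with adjusted permutation p from 0.209 to 0.51 and rho from 0.20 to 0.48. Without C1 and S4, the populations with the highest yolk protein levels, these turned to r = -0.45, -0.31 and -0.09.

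**Figure D4:**
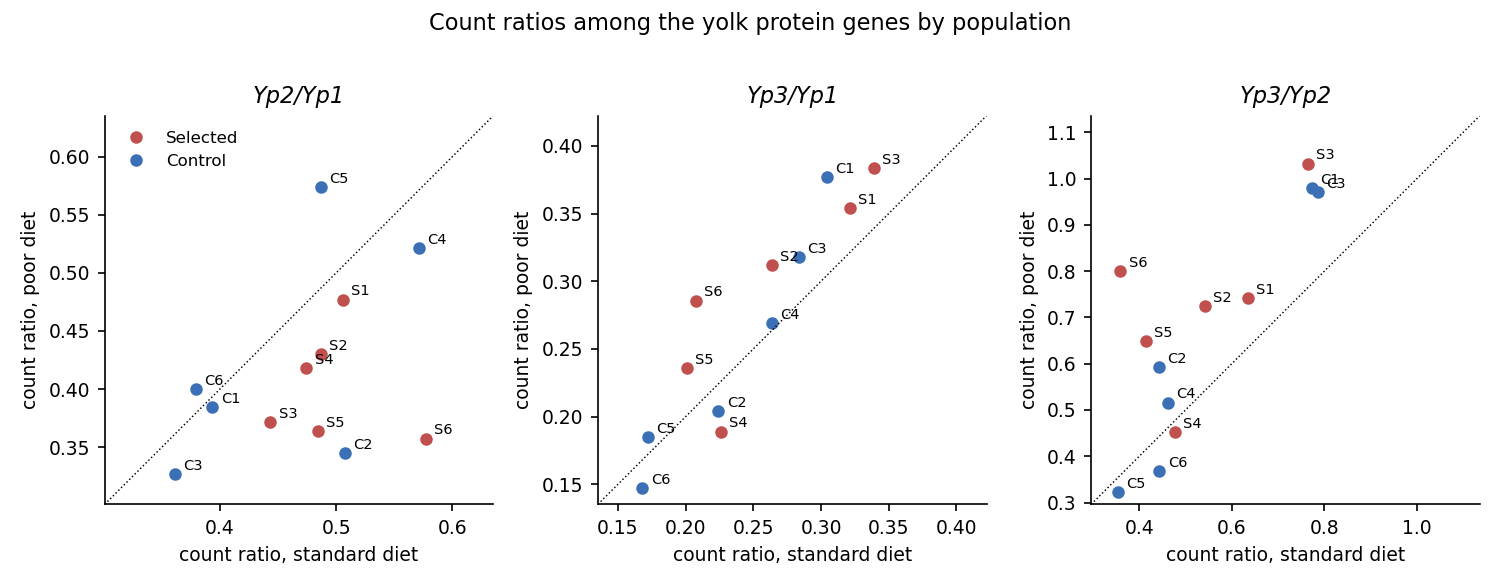
Each point is 1 population, with the count ratio on poor diet on the y axis and on standard diet on the x axis, for Yp2 over Yp1, Yp3 over Yp1 and Yp3 over Yp2; red points are Selected, blue points Control, and the dotted line marks equal ratios. The Yp3 over Yp1 points follow the line from C6 (0.147 and 0.168 on poor and standard diet) to S3 (0.384 and 0.339), and most Yp2 over Yp1 points lie below it.

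Marker genes were summed to see which tissues the carcass libraries held. Female fat body markers (8 of 10 listed genes were tested) gave a summed level of 6466 to 13351 CPM on poor diet and 6208 to 19671 CPM on standard diet, so the labelled tissue was present in each library. Every library came from females, so female bias of the members of this list was not checked. Germline and oocyte markers (21 tested of 21 matched) gave 96.7 to 1158 CPM on poor diet and 95.7 to 2625 CPM on standard diet. Their member vas alone had 0.166 to 33.9 CPM on poor diet and 0.275 to 71.2 CPM on standard diet. The lowest sums therefore need not mean ovary RNA. Eggshell and follicle cell markers (12 tested of 18 matched) gave 1.68 to 751 CPM on poor diet and 2.70 to 1589 CPM on standard diet, and the chorion gene Cp36 was at 0 in the lowest libraries of both diets with medians of 0.082 and 0.126 CPM. Midgut enzymes (14 tested of 17) gave 14.2 to 3688 CPM on poor and 13.1 to 22262 CPM on standard diet. RNA of ovary and gut, which dissection was meant to remove, thus varied widely between libraries, and follicle cells make yolk protein RNA themselves.

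No relation between the tissue marker scores and the yolk protein genes passed across populations. S6 had a germline score (mean log2 CPM of the list) of 4.12 on poor diet and 0.51 on standard diet, C3 had -0.31 and 4.46, and both were among the populations with the lowest Yp1 relative to standard diet. Poor diet had the lower germline score in 6 of 12 populations, the lower eggshell score in 8 and the lower female fat body score in 9. Over population means and over diet differences, 18 correlations of the 3 genes with the germline, eggshell and fat body scores lay between r = -0.34 and 0.22, with rho between -0.38 and 0.31 and adjusted permutation p of 0.962 or more. The fat body score averages genes whose diet values were negative in 5 and positive in 3. It does not stand for single members. Of these members apolpp alone was among the genes closest to the mean of the yolk protein genes. Its r was 0.82 over 24 libraries and 0.86 over the diet differences, without a test. With the germline score as a covariate the diet fold changes were -1.30, -1.48 and -1.21 for Yp1, Yp2 and Yp3, with adjusted p of 0.0270, 0.0300 and 0.0258 (edgeR), where 4.36% of genes were called.

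**Figure D5:**
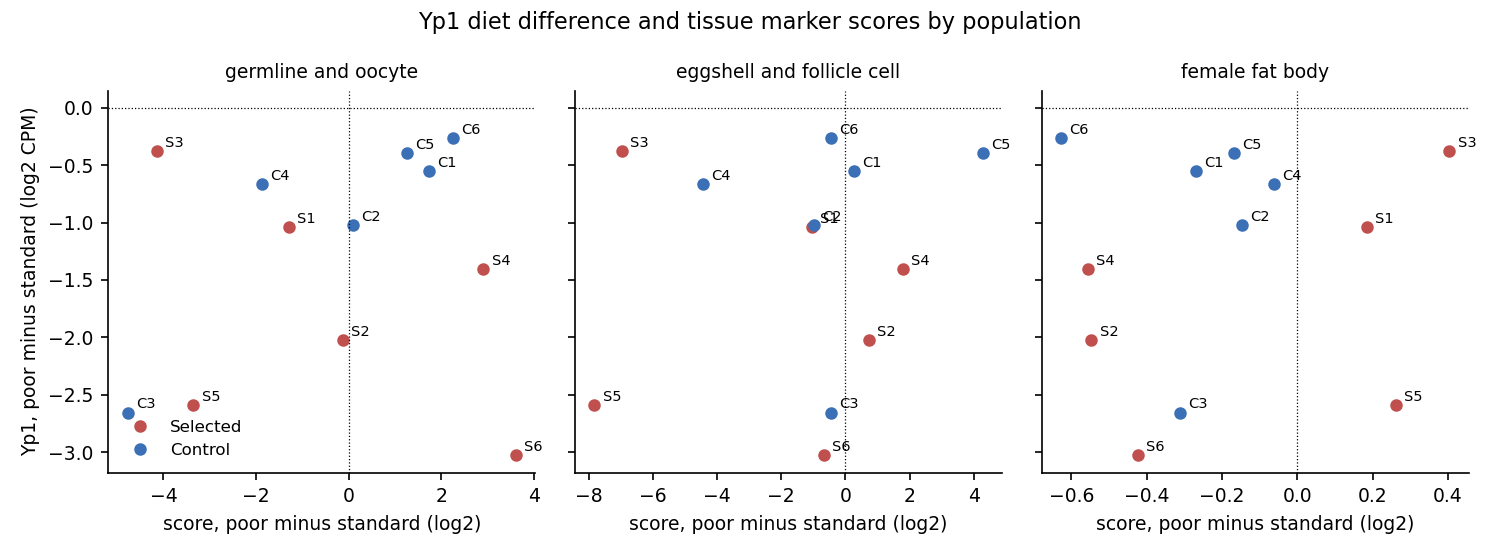
Each point is 1 population, with the poor minus standard difference of a marker score (mean log2 CPM of the list) on the x axis and that of Yp1 log2 CPM on the y axis, for germline, eggshell and female fat body markers; red points are Selected and blue points Control. All 12 points lie below 0 on the y axis, and they spread to both sides of 0 on the x axis for each list.

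Genes around the yolk proteins in uptake, regulation and nutrient sensing were read from lists of known members, each set beside the median diet fold change of all genes tested, -0.03 on the log2 scale, and the shares of all genes called, 0.864% higher and 0.265% lower on poor diet. At those shares a list of this size with 0 calls lies at the background. Of 5 tested genes for yolk uptake and lipoprotein receptors, 0 rose and 0 fell on poor diet, with a median of 0.11. The yolk receptor gene yl, which the oocyte expresses, had 0.631 to 442 CPM on poor diet and 0.31 to 669 CPM on standard diet, with a fold change of 0.16 ± 1.15 (SE). Of 6 lipoprotein and lipid carrier genes 0 passed, with a median of 0.04. Among them apolpp, the precursor of the fat body lipoprotein that carries lipid in hemolymph, had a fold change of -0.78 ± 0.23 (SE, adjusted p 0.117, edgeR) with the lower value on poor diet in 10 of 12 populations.

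Regulators of yolk protein transcription were read from 2 lists, each at the background share of calls. Of 13 tested genes for sex determination and yolk protein regulation, 0 rose and 0 fell, with a median of 0.04, and dsx, the sex-specific regulator that binds the yolk protein enhancer, had 0.12 ± 0.10. Of 17 hormone receptor and response genes 0 passed, with a median of 0.08. EcR, the ecdysone receptor, had -0.08 ± 0.05, Met, a juvenile hormone receptor, had 0.17 ± 0.06, and Kr-h1, a juvenile hormone response gene, had 0.08 ± 0.12. Each of these 4 genes had a median between 25.1 and 113 CPM.

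A single gene of the nutrient-sensing lists rose. InR, the insulin receptor, had 46.8, 74.9 and 101 CPM (lowest, median, highest of 12) on poor diet and 39.3, 47.9 and 70.1 CPM on standard diet. All 12 populations had more on poor diet, and the log2 fold change was 0.57 ± 0.10 (SE, adjusted p 0.0232, edgeR). The call was lost without S1 or without S5 (highest adjusted p 0.0618), without S4 and C1 (0.072) and with the rRNA pseudogene share as covariate (0.359), with fold changes of 0.51 to 0.61. It was 1 of 19 tested genes of insulin and TOR signalling, of which 0 fell and whose median was 0.08, where 0.864% of all genes were called higher. Fitted diet values of the 8 tested genes in the list named female fat body were negative in 5 and positive in 3. The largest positive value was that of Obp99b, 0.66 ± 0.23 (SE, adjusted p 0.175, edgeR), whose female bias was not checked here. The list median was 0.06 in Selected flies and -0.32 in Control flies. Of the 8 markers 1 fell and 0 rose over all 12 populations, with a median of -0.20, where 0.265% of all genes were called lower. That gene was fit, a female-biased fat body gene known as a satiety signal after protein feeding, with 1.43, 4.69 and 8.47 CPM on poor diet and 2.50, 8.26 and 20.8 CPM on standard diet. Its log2 fold change was -0.87 ± 0.19 (adjusted p 0.0439, edgeR) and it was lower in 11 of 12 populations. The call held in 2 of 12 fits that left out 1 population, and it was lost without the population block (adjusted p 0.23), without S4 and C1 (0.112), with the rRNA covariate (0.433), with no filter on low counts (0.0534) and with voom (0.106).

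In the lists for germline, eggshell, midgut, hemocyte and muscle 0 genes passed for diet, at the background share. The medians were -0.25 for 21 germline genes, with vas at 0.07, -0.89 for 12 eggshell genes, with Cp36 at -3.11 (adjusted p 0.215, edgeR), -1.17 for 14 midgut enzymes, 0.10 for 8 hemocyte genes and 0.18 for 11 muscle genes. Cp36 was lower on poor diet in 6 populations and higher in 6, with highest values of 1.21 CPM on poor and 473 CPM on standard diet. By regime 0 genes passed in any of the 11 lists, where 0.0295% of all genes were called. Regime values of the 12 eggshell genes were positive in 10 and negative in 2, Cp15 (-2.87 ± 0.64, SE) and Cp18 (-2.40 ± 0.61). The largest positive value was that of Cp36, 8.53 ± 2.28 (SE, adjusted p 0.203, edgeR), at medians of 0.082 and 0.126 CPM on poor and standard diet. The regime medians were 0.94 for germline, 1.58 for eggshell and 0.58 for midgut genes, -0.36 for lipoproteins and -0.34 for hemocyte genes, against 0.01 over all genes tested.

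The genes whose log2 CPM followed the mean of the yolk protein genes most closely over 24 libraries were Papss (r = 0.90), which makes the sulfate donor PAPS, and CG4259 (0.84). Next came apolpp (0.82), l(1)G0320 (0.82), loj (0.80), Pisd (0.79), Gip (0.78), NimB3 (0.77), CG4210 (0.77) and CG2736 (0.77). Papss had a median of 28.4 CPM on poor diet and 41.3 CPM on standard diet, with a log2 fold change of -0.51 ± 0.08 (SE, adjusted p 0.0195, edgeR). The fold change was -0.78 ± 0.14 for CG4259 (adjusted p 0.0281, edgeR) and -0.25 ± 0.05 for Gip (adjusted p 0.0395, edgeR). All 3 calls were lost without the population block (adjusted p 0.129, 0.0532 and 0.156 for Papss, CG4259 and Gip), without S4 and C1 (0.0683, 0.0728 and 0.0992) and with the rRNA covariate (0.349, 0.352 and 0.459). With 1 population left out, Papss was called in 10 of 12 fits, all but those without S1 or S5, CG4259 in 5 and Gip in 2. Gip also lost its call with RLE size factors (adjusted p 0.052), with no filter on low counts (0.0818) and with library sizes taken without the yolk protein genes (0.0667). Over the 12 diet differences the closest genes were dpr8 (r = 0.92), Papss (0.91), Pdi (0.88), a protein disulfide isomerase of the endoplasmic reticulum, apolpp (0.86) and mnd (0.86). Such an r does not give the direction of the diet difference. The diet fold change of dpr8 was positive, 0.69 ± 0.21 (SE), at low medians of 0.929 CPM on poor and 0.710 CPM on standard diet. It was -0.13 ± 0.06 for Pdi and -0.11 ± 0.06 for mnd. These genes were picked for following a mean that itself differed by diet, so their correlations and their diet values are descriptions. Of the 10 genes picked over 24 libraries 3 were called lower on poor diet and 7 were not, where 0.265% of all genes were called lower, and nothing is read from that count.

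Total estimated counts were 29.4 to 31.5 M in 23 libraries and 22.4 M in S2 on standard diet, and the yolk protein genes had at least 1262 CPM in every library, so counting error is small beside the spread between populations. The highest correlation between any pair of libraries was 0.972 in log2 CPM. The p-values of the main diet fits measure how the poor minus standard difference varied between populations. Those of the regime fits measure the spread between populations. Each population was sampled once per diet, so both also hold variation between pools and libraries.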

How the data were processed

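Counts per transcript came from tables of estimated counts and TPM that the authors made with kallisto 0.46.2, per the submitters' processing notes, and deposited per library, as the file headers name them. The authors also deposited a table of log2 CPM for 8746 genes. Of 30944 transcripts 30811 matched annotation BDGP6.54 (release 115); the other 133 held 0.282% of counts and went into no gene. Gene sums of the estimated counts were rounded. Genes kept by filterByExpr (10184) were tested with edgeR 4.0.16 (TMM, quasi-likelihood F test, R 4.3.3). It was tested on simulated data without differences between populations, which does not check the population block or the regime sums. Diet was fitted with population as a block. The pairing comes from the labels, and deviations of a population's 2 libraries from their group means correlated at 0.216 on average, from -0.226 to 0.651. Regime was fitted on sums of a population's 2 libraries, and within a diet on 6 against 6. DESeq2 1.42.0 and limma 3.58.1 served as alternatives. CPM is TMM-normalised, with a prior count of 0.5 on the log2 scale. Exact permutation tests used SciPy 1.17.1, and correlations 100000 permutations. Replicates are separate populations, 1 pool each.

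The genes and lists (11 lists, 142 of 149 symbols matched) were chosen with earlier results of these data known. Besides the 3 yolk protein genes, the text names list members that passed the diet or regime test, 10 genes set by name, and the 10 and 5 genes most correlated over libraries and diet differences. Alternatives for the 5 named genes called besides these were added after seeing the data. A planned search for sequence relatives was not run, since no protein sequences were used here.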

Additional observations from a re-analysis of the deposited data

Results flagged for a closer look

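Dixon's test was applied to 28 groups of 6 libraries (levels in CPM, ratios and summed share). In 7 of them the gap from the highest library to the next exceeded the 95% critical value. Chance alone does this in about 1 group in 20. The groups are not independent, since the 3 genes moved together and the share and ratios use the same counts. The 7 are therefore not separate results to be set against that rate. All 7 belong to populations S4 and C1. Among Selected libraries on standard diet, S4 had 70134 CPM of Yp1, with 36090 CPM in the next highest, 15866 CPM of Yp3, with 8519 CPM in the next, and 10.5% of its counts on the 3 genes, with 5.70% in the next. Among Control libraries on standard diet, C1 had 55239 CPM of Yp1 (next 32273 CPM), 16823 CPM of Yp3 (next 8167 CPM) and a share of 8.38% (next 4.89%). Among Control libraries on poor diet, C1 had 14226 CPM of Yp3, with 4165 CPM in the next highest.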

How the results depend on the processing

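The diet direction of all 3 genes was negative under every alternative run over 12, 11 or 10 populations. All of these fits took diet from the characteristics. The titles name the other diet in 24 libraries, so under the titles the poor and standard libraries would change places. Of 3 genes called, 1 remained called with no filter on low counts, 2 with RLE size factors, 0 without the replicate block, and 0 with 2 alternatives added after seeing the data, the rRNA pseudogene share as covariate and the fit without S4 and C1; leaving out 1 population gave 0 to 3. In Selected flies 0 were called, against 3 with DESeq2 and 3 with the germline score as covariate. Over all genes the diet comparison called 1.13% (88 higher and 27 lower), DESeq2 528 (310 higher), the germline covariate 444, voom with a random population effect 222, no replicate block 21 (all higher), the rRNA covariate 0, the fit without S4 and C1 0 and single omissions 3 to 139 (3 without S1, 4 without S5). Regime called 3 genes, DESeq2 230, voom 155, a replicate block on like-numbered populations 0 and single omissions 1 to 36. Deviations of like-numbered populations from their group means correlated at r of -0.377 to -0.0032, with 0 of 6 matching best. Such correlations cannot tell if like-numbered populations shared a block. On poor diet 6 genes became 207 with DESeq2 and 0 with the block, on standard diet 1 became 56 and 0, and in Selected flies 64 became 395 with DESeq2 and 208 with the germline covariate. Regime values turned sign: Yp2 0.0079 with the germline covariate, Yp3 0.021 with the replicate block and 0.20 (0.038 on poor diet) without S4 and C1. Single omissions spanned -0.45 to 0.11 (Yp1), -0.32 to 0.16 (Yp2) and -0.28 to 0.40 (Yp3), on poor diet -1.02 to -0.39 (Yp1), -1.11 to -0.54 (Yp2) and -0.82 to 0.15 (Yp3), on standard diet -0.12 to 0.37 (Yp1), 0.080 to 0.49 (Yp2) and -0.024 to 0.56 (Yp3), and -0.014 to 0.12 for the Yp2 over Yp1 regime difference. In Control flies the rRNA covariate, higher on poor diet in each of these populations, gave 0.0050 (Yp2) and 0.10 (Yp3). Of 9 ratio tests 0 passed, and 0 to 2 did with single omissions. The Yp3 over Yp1 correlation between diets was 0.89 and 0.90 with TPM ratios and major transcripts, and 0.093 with the titles' pairing. The cause of these changes was not tested.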

Other observations

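The 2 transcripts of Yp1 start at different places, Yp1-RB at 10053811 and Yp1-RA at 10053852, and Yp1-RB held a small share of the Yp1 counts. Its share was 0.560%, 0.730% and 1.08% (lowest, median, highest of 12 libraries) in Selected flies and 0.529%, 1.23% and 1.97% in Control flies. On poor diet it was 0.622% to 1.05% in Selected and 0.808% to 1.97% in Control flies, and on standard diet 0.560% to 1.08% in Selected and 0.529% to 1.29% in Control flies. The ranges overlap on both diets, and C3 had the lowest Control share on each, 0.808% on poor and 0.529% on standard diet. The difference in medians was noticed in these values and was not tested.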
